A study of Drosophila melanogaster with 35 samples.

Results

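The genes described here are the fly Toll receptors and the NF-κB factors they act through: the ligand spz, the receptors Tl, Toll-4, Toll-6, Toll-7 and 18w, the NF-κB proteins Rel, Dif and dl, and the inhibitor cact. They were chosen by symbol, and all 10 were found among the 14279 genes of the expression table. RNA was measured in fly heads at 1 week of age, in 35 libraries of 12 genotypes, to ask how human TREM2 and its adaptor TYROBP in glia change gene expression, alone and beside Aβ42 or tau. TREM2 is a microglial receptor and R47H is a variant of it linked to Alzheimer's disease.

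In 18 libraries the driver was elav-GAL4, which is active in neurons: control, TREM2WT/TYROBP, TREM2R47H/TYROBP, UAS-Aβ42, UAS-Aβ42 with TREM2WT/TYROBP and UAS-Aβ42 with TREM2R47H/TYROBP, each with 3 libraries. In the other 17 the driver was GMR-GAL4, which is active in the developing eye: control, TREM2WT/TYROBP, TREM2R47H/TYROBP, UAS-Tau, UAS-Tau with TREM2WT/TYROBP and UAS-Tau with TREM2R47H/TYROBP, each with 3 libraries except 2 for UAS-Tau alone. Every genotype, controls included, carried the glial driver Repo-LexA and one GAL4 driver, and TREM2 and TYROBP sat under LexAop2. The controls thus carried the drivers without the human transgenes. Whether the genotypes matched in the rest of their genetic background was not tested. Heads of many flies were pooled per genotype. The labels do not say whether the libraries of a genotype came from separate collections, so p-values measure the spread between libraries, which may be technical.

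In flies the cleaved ligand Spätzle (spz) binds Toll (Tl), and the signal leads to loss of Cactus (cact), the IκB protein that holds Dorsal (dl) and Dif in the cytoplasm. Relish (Rel) is the NF-κB factor of the parallel Imd pathway and is activated by cleavage. Both pathways switch on antimicrobial peptide genes, in the fat body above all, and Toll also patterns the embryo. Toll-6 and Toll-7 bind neurotrophin-like ligands in the fly nervous system, and 18w (Toll-2) acts in epithelial morphogenesis. Activation of these proteins is by cleavage, release or movement to the nucleus, none of which RNA levels measure.

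Before the results, the labelled sex and the data have to be set side by side. The elav genotypes are labelled as males, the GMR labels give no sex, and the methods name males for sequencing. At equal RIN (RNA integrity number) the male-specific RNA roX1 lay between 11.43 and 11.72 log2 CPM in the elav libraries and between 5.43 and 5.89 in the GMR libraries. The yolk protein gene Yp1 lay between 0.74 and 5.53 in the elav libraries and between 13.24 and 14.09 in the GMR libraries. The GMR libraries thus carried the marker pattern of females, and driver, sex markers and any batch cannot be told apart. For this reason TREM2/TYROBP effects were read within each driver and then averaged. Markers of neurons, glia and photoreceptors were present in all libraries, as heads require. The library labelled GMR TREM2WT/TYROBP replicate 1 had the highest RIN (7.5) and the largest sum of back-transformed values (2028124 against 1253567 for the next), and leaving it out changed none of the 5 counts of calls given below. In the deposited values the yolk protein genes Yp1, Yp2 and Yp3 made up 47.3% of that sum, against 0.224% to 18.5% in the other GMR libraries, a spread far wider than that of Yp1 at equal RIN.

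On BDGP6, Rel lies at 3R:9044183-9047977 on the minus strand, Tl at 3R:26799041-26842403 on the plus strand and spz at 3R:27064990-27070070 on the minus strand. Toll-6 lies at 3L:15336692-15344315, Toll-7 at 2R:19826578-19832973 and 18w at 2R:20111511-20116932, all on the plus strand and each with all its exonic sequence in 1 block. Toll-4 lies at 2L:9084107-9089440 on the plus strand, and cact at 2L:16313036-16326207 on the minus strand. Dif (2L:17413248-17433161) and dl (2L:17436830-17450364) are neighbours on the minus strand. All 10 are annotated as protein coding. The 3′ end of Dif shares 252 exonic bases with CG15141 on the opposite strand, cact shares 62 with fzy and spz shares 5 with CG43935. Use of strand in counting was not stated, so reads in those bases cannot be told apart. Rel lies inside the span of Nmdmc with no shared exonic base.

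Per kilobase of transcript, Toll-4 stood far below the other 9 genes. The order of the mean level, in CPM per kb, was cact (48.7), Rel (39.9), Tl (31.0), 18w (27.4), Dif (23.2), spz (16.2), Toll-7 (12.3), Toll-6 (10.2), dl (9.86) and Toll-4 (0.306). Thus the inhibitor cact stood above all 3 factors. The order of neighbours held in all 35 libraries for cact over Rel, Rel over Tl, Dif over spz, Toll-7 over Toll-6 and dl over Toll-4. It held in 34 for Tl over 18w and for 18w over Dif, in 33 for spz over Toll-7, and in only 20 for Toll-6 over dl. That pair split by driver, with Toll-6 above dl in 17 of 18 elav libraries and in 3 of 17 GMR libraries, the controls. Without the length correction Toll-4 had a mean of 1.03 CPM, which placed it above 29.3% of the genes. Its libraries of 1 genotype varied with an SD of 0.26 on the log2 scale, against 0.03 to 0.07 for the other 9 genes.

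**Figure D1:**
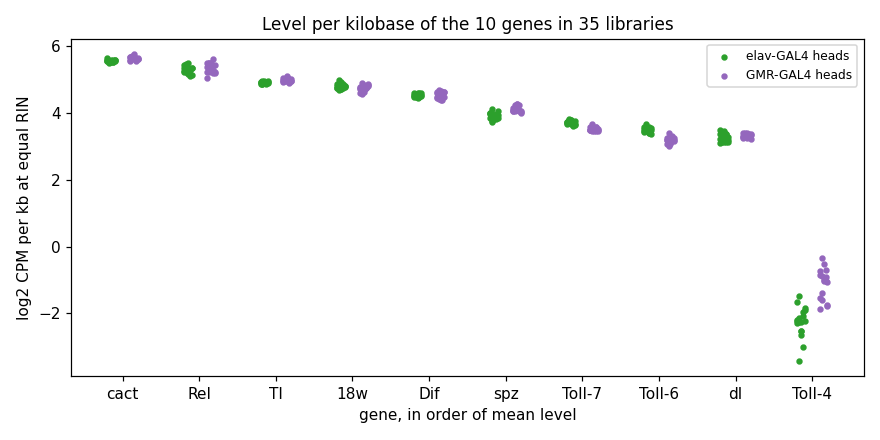
Level per kilobase (log2 CPM per kb at equal RIN, y axis) of each of the 10 genes (x axis, in order of mean level) in the 18 elav-GAL4 (green) and 17 GMR-GAL4 (purple) libraries, 1 point per library. The first 9 genes form narrow bands from cact down to dl, and Toll-4 lies far below them with a wide spread.

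A gene was called changed when its adjusted p was under 0.05 and its fold change above 1.2. Over the 18 comparisons within drivers, 5 of 180 gene-by-comparison pairs were called, where 4.80% of the pairs of all genes were. The calls fell on 2 genes, Toll-4 (2 calls, both up) and Rel (3 calls, 1 up and 2 down). The other 8 genes had no call, and their largest difference in any of the 18 comparisons was 0.24 (Toll-6, downward) on the log2 scale. Before adjustment 73 of the 180 pairs had a p under 0.05, against 20.8% of the pairs of all genes. When each effect was averaged over its settings, 4 of 50 pairs were called and all 4 were Toll-4. The 5 averaged effects share libraries with each other, so their values below are not independent.

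At equal RIN Toll-4, one of the receptors, was higher with TREM2R47H/TYROBP than with TREM2WT/TYROBP in every setting. In elav heads its 3 libraries with TREM2R47H/TYROBP were at -0.10, 0.10 and 0.26 log2 CPM, against -0.78, -0.34 and -0.47 with TREM2WT/TYROBP and -0.48, -0.40 and -0.51 in the control. With Aβ42 they were at -0.22, -0.13 and -0.44, against -0.52, -0.77 and -1.24 with TREM2WT/TYROBP and -0.52, -1.66 and -0.89 with Aβ42 alone. In both settings the R47H libraries lay above the other groups without overlap.

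In GMR heads Toll-4 was at 1.02, 1.41 and 1.23 with TREM2R47H/TYROBP, 0.72, 0.70 and 0.90 with TREM2WT/TYROBP and 0.36, 0.75 and 0.86 in the control. With tau it was at 0.87, 0.73 and 1.05 with TREM2R47H/TYROBP, -0.04, -0.12 and 0.17 with TREM2WT/TYROBP and 0.02 and 0.22 with tau alone. Again no R47H library overlapped the other groups at equal RIN. In GMR heads without tau this rested on the move to equal RIN, as R47H replicates 2 and 3 had RIN 5.7 and 5.6. The deposited values there were 1.10, 1.02 and 0.80 with TREM2R47H/TYROBP and 1.03, 0.62 and 1.01 with TREM2WT/TYROBP. Those of the control were 0.44, 0.78 and 0.93, so the groups overlapped. At equal RIN, R47H above WT without overlap in all 4 settings held for 2 of the 10 genes, Toll-4 and spz, and for 0.672% of all genes. In the deposited values both genes overlapped between WT and R47H in GMR heads without tau.

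Averaged over the 4 settings, Toll-4 was 1.58-fold higher with TREM2R47H/TYROBP than without TREM2/TYROBP (log2 0.66, SE 0.11, adjusted p 5.70e-05) and 1.55-fold higher than with TREM2WT/TYROBP (log2 0.63, SE 0.11, adjusted p 0.000198). With 1 added to each linear value both differences were 0.32 and still called. Toll-4 was the only one of the 10 genes called in these effects, which called 7.59% and 3.48% of all genes. TREM2WT/TYROBP itself gave a difference of 0.03 (95% interval -0.20 to 0.26), with none of the 10 genes called by limma, against 5.07% of all genes, and 3 at an unadjusted p under 0.05, against 28.5% of all genes. The rise against WT was called in the elav settings alone (0.60, adjusted p 0.0168) and in the GMR settings alone (0.67, adjusted p 0.00471). Of single comparisons, Aβ42/TREM2R47H/TYROBP against Aβ42 (0.76, SE 0.21, adjusted p 0.0180) and tau/TREM2R47H/TYROBP against tau/TREM2WT/TYROBP (0.88, SE 0.23, adjusted p 0.0333) were called. The first was lost without Aβ42 replicate 2, without Aβ42/TREM2R47H/TYROBP replicate 2 and when only the elav libraries were fitted (adjusted p 0.0787), and the second without any one of 6 libraries, 5 of which belong to the groups compared. R47H against WT was not called in elav (0.62, adjusted p 0.121), elav with Aβ42 (0.58, adjusted p 0.184) or GMR heads (0.45, adjusted p 0.445). Over 45 alternatives the difference in GMR heads ranged from 0.09 to 0.75.

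Toll-4 also fell with both disease proteins. With Aβ42 it was at 0.754 times its level without, averaged over 3 settings (log2 -0.41, SE 0.12, adjusted p 0.0139), and with tau at 0.684 times (log2 -0.55, SE 0.13, adjusted p 0.00347). It was again the only gene of the 10 called, where Aβ42 called 8.13% and tau 6.42% of all genes. The call for Aβ42 was lost when 1 was added to each linear value (log2 -0.17, under the fold of 1.2) and when only the elav libraries were fitted (adjusted p 0.0551). As single comparisons, Aβ42 against the elav control (-0.56, adjusted p 0.0952) and tau against the GMR control (-0.54, adjusted p 0.193) were not called for Toll-4.

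spz, the Toll ligand, was higher with TREM2R47H/TYROBP by a small step. In elav heads it was at 5.31, 5.25 and 5.36 log2 CPM with TREM2R47H/TYROBP, 5.11, 5.14 and 5.10 with TREM2WT/TYROBP and 5.21, 5.16 and 5.22 in the control. With Aβ42 it was at 5.15, 5.19 and 5.25 with TREM2R47H/TYROBP, 4.98, 5.05 and 5.08 with TREM2WT/TYROBP and 5.09, 4.999 and 5.09 with Aβ42 alone. All R47H libraries were above all others of the same setting.

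In GMR heads spz was at 5.39, 5.48 and 5.53 with TREM2R47H/TYROBP, 5.30, 5.29 and 5.33 with TREM2WT/TYROBP and 5.40, 5.32 and 5.33 in the control. With tau it was at 5.40, 5.52 and 5.49 with TREM2R47H/TYROBP, 5.31, 5.30 and 5.30 with TREM2WT/TYROBP and 5.23 and 5.30 with tau alone. Here, at equal RIN, 1 R47H library fell within the range of the control, and none within that of TREM2WT/TYROBP. In the deposited values of GMR heads without tau, R47H replicate 2 (5.37) lay below TREM2WT/TYROBP replicate 1 (5.39), and the control reached 5.42. The averaged R47H-to-WT ratio was 1.12 (log2 0.17, SE 0.02, adjusted p 3.28e-06), below the fold of 1.2. The step had nearly the same size in the elav settings (0.17, adjusted p 0.000443) and the GMR settings (0.16, adjusted p 0.000532). Against no TREM2/TYROBP it was 0.14 (SE 0.02, adjusted p 1.87e-05).

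**Figure D2:**
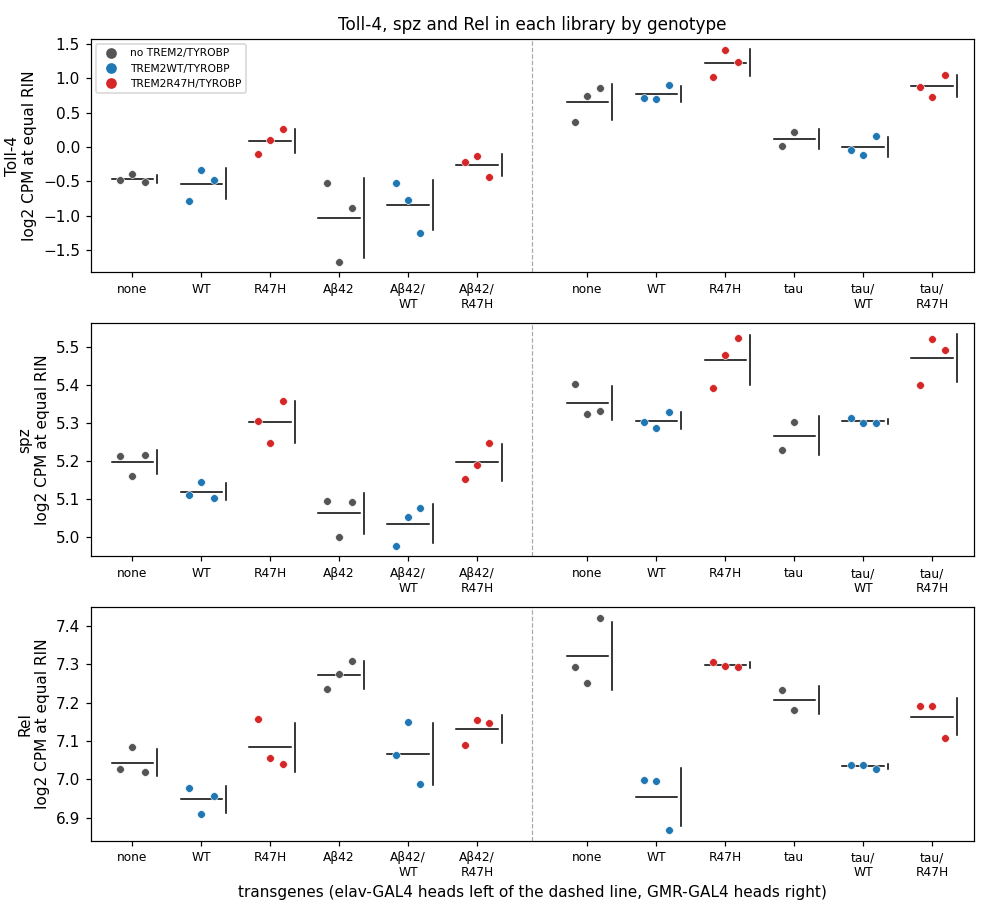
Toll-4, spz and Rel (y axes, log2 CPM at equal RIN, each with its own range) in each library of the 12 genotypes (x axis), with horizontal lines for the genotype mean and vertical lines for ± 1 SD. For Toll-4 and spz the red points (TREM2R47H/TYROBP) lie above the blue points (TREM2WT/TYROBP) in all 4 settings, and for Rel the blue points lie below the grey points (no TREM2/TYROBP) in all 4.

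Rel, the Imd pathway's NF-κB factor, was lower with TREM2WT/TYROBP. In GMR heads it was at 7.00, 7.00 and 6.87 log2 CPM with TREM2WT/TYROBP, 7.29, 7.25 and 7.42 in the control and 7.31, 7.30 and 7.29 with TREM2R47H/TYROBP. With tau it was at 7.04, 7.04 and 7.03 with TREM2WT/TYROBP, 7.23 and 7.18 with tau alone and 7.19, 7.19 and 7.11 with TREM2R47H/TYROBP. The WT libraries thus stood below both other groups in each case.

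In elav heads Rel was at 6.98, 6.91 and 6.96 with TREM2WT/TYROBP, 7.03, 7.08 and 7.02 in the control and 7.16, 7.06 and 7.04 with TREM2R47H/TYROBP. With Aβ42 it was at 7.06, 7.15 and 6.99 with TREM2WT/TYROBP, 7.23, 7.27 and 7.31 with Aβ42 alone and 7.09, 7.16 and 7.15 with TREM2R47H/TYROBP. Only here did the WT and R47H libraries overlap. WT below no TREM2/TYROBP without overlap in all 4 settings held for 1 of the 10 genes, Rel, and for 1.55% of all genes.

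Rel fell with TREM2WT/TYROBP in GMR heads (log2 -0.37, SE 0.05, adjusted p 6.87e-06), and was lower with tau/TREM2WT/TYROBP than in the GMR control (-0.29, SE 0.05, adjusted p 0.000516). TREM2R47H/TYROBP was above TREM2WT/TYROBP in GMR heads (0.34, SE 0.06, adjusted p 0.000647). The call for tau/TREM2WT/TYROBP was lost without GMR control replicate 3, the highest library of its group. Direct comparisons of TREM2WT/TYROBP were not called beside tau (-0.17 against tau alone, adjusted p 0.0604) or in elav heads (-0.10 against the control, adjusted p 0.274). Beside Aβ42 the fall passed the adjusted p but not the fold (-0.21 against Aβ42 alone, adjusted p 0.00884). Averaged over the 4 settings, Rel was 0.864 times its level without TREM2/TYROBP (log2 -0.21, SE 0.02, adjusted p 4.99e-07), and R47H was above WT by 0.17 (SE 0.02, adjusted p 1.55e-05), neither past a fold of 1.2. The WT effect was -0.15 in the elav settings (adjusted p 0.00428) and -0.27 in the GMR settings (adjusted p 4.96e-06). Without Aβ42 or tau, the WT effect differed between drivers by -0.27 (SE 0.07, adjusted p 0.0284), and it was the only member so called, against 1.82% of all genes. Over both settings of each driver the difference was -0.12 (SE 0.05, adjusted p 0.220). Averaged over the 4 settings, TREM2R47H/TYROBP left Rel at -0.04 against none (95% interval -0.09 to 0.01). Beside Aβ42, Rel was lower with TREM2R47H/TYROBP than with Aβ42 alone (-0.14, SE 0.05, adjusted p 0.0422). The libraries did not overlap, and the difference was below the fold of 1.2. It was 0.04 in elav heads, -0.02 in GMR heads and -0.04 with tau, none past the adjusted p.

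By adjusted p alone, without the fold, 2 of the 10 genes differed with TREM2WT/TYROBP against none, against 15.5% of all genes, namely Rel and Toll-7 (-0.08, adjusted p 0.0152). With TREM2R47H/TYROBP against none it was 4, against 29.2% of all genes, namely Toll-4, spz, 18w (-0.10, adjusted p 0.0119) and Toll-6 (-0.07, adjusted p 0.0346). For R47H against WT it was 5, against 14.4% of all genes, all higher with R47H. These were Toll-4, spz, Rel, the inhibitor cact (0.06, adjusted p 0.00882) and the receptor Tl (0.05, adjusted p 0.0445). The values of Tl passed in 22 of 44 alternative settings and those of Toll-6 in 31 of 44.

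Of the 2 Toll factors, dl was higher with Aβ42 and Dif with tau, each by less than the fold of 1.2. In elav heads dl was at 6.19, 6.10 and 6.15 log2 CPM with Aβ42 against 5.90, 5.89 and 5.96 in the control. With TREM2WT/TYROBP it was at 6.00, 6.10 and 6.05 with Aβ42 and 5.81, 5.81 and 5.83 without, and with TREM2R47H/TYROBP at 6.05, 5.95 and 6.06 with Aβ42 and 5.89, 5.79 and 5.82 without. No library with Aβ42 overlapped its counterpart group, which for Aβ42 above none in all 3 settings held for dl and Dif among the 10 genes and for 5.12% of all genes. The averaged rise of dl was 1.16-fold (log2 0.22, SE 0.02, adjusted p 6.77e-09), below the fold of 1.2. In GMR heads tau gave dl a difference of 0.02 (95% interval -0.02 to 0.06).

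Dif was at 7.14 and 7.10 log2 CPM with tau against 7.00, 6.95 and 7.04 in the GMR control. With TREM2WT/TYROBP it was at 7.12, 7.15 and 7.12 with tau and 6.90, 6.99 and 6.95 without, and with TREM2R47H/TYROBP at 7.21, 7.18 and 7.15 with tau and 6.99, 6.93 and 6.90 without. The groups did not overlap in any of the 3 settings, as was the case for tau above none in 3.70% of all genes. The averaged rise was 1.14-fold (log2 0.18, SE 0.02, adjusted p 4.91e-08), and with Aβ42 Dif rose by 0.06 (SE 0.02, adjusted p 0.0153). CG15141, which shares exonic bases with Dif, gave -0.05 with tau (adjusted p 0.377) and rose with Aβ42 (0.11, adjusted p 0.0149), by more than Dif did.

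By adjusted p alone 6 of the 10 genes differed with Aβ42, against 26.4% of all genes, and 3 with tau, against 19.2%. Beside dl, Dif and Toll-4 these were, with Aβ42, Rel (0.13, adjusted p 0.000485), spz (-0.11, adjusted p 0.00102) and Toll-6 (-0.10, adjusted p 0.00402), and, with tau, Toll-6 (-0.11, adjusted p 0.00732). The Aβ42 effect less the tau effect, a contrast chosen after the values were seen, was 0.20 for dl (SE 0.03, adjusted p 1.57e-05), 0.19 for Rel (SE 0.04, adjusted p 0.000935) and -0.13 for Dif (SE 0.03, adjusted p 0.000644). By adjusted p alone 2 of the 10 genes were higher (9.17% of all genes) and 1 was lower (8.85% of all genes). Since Aβ42 was set in elav heads and tau in GMR heads, disease protein and driver cannot be told apart in it.

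**Figure D3:**
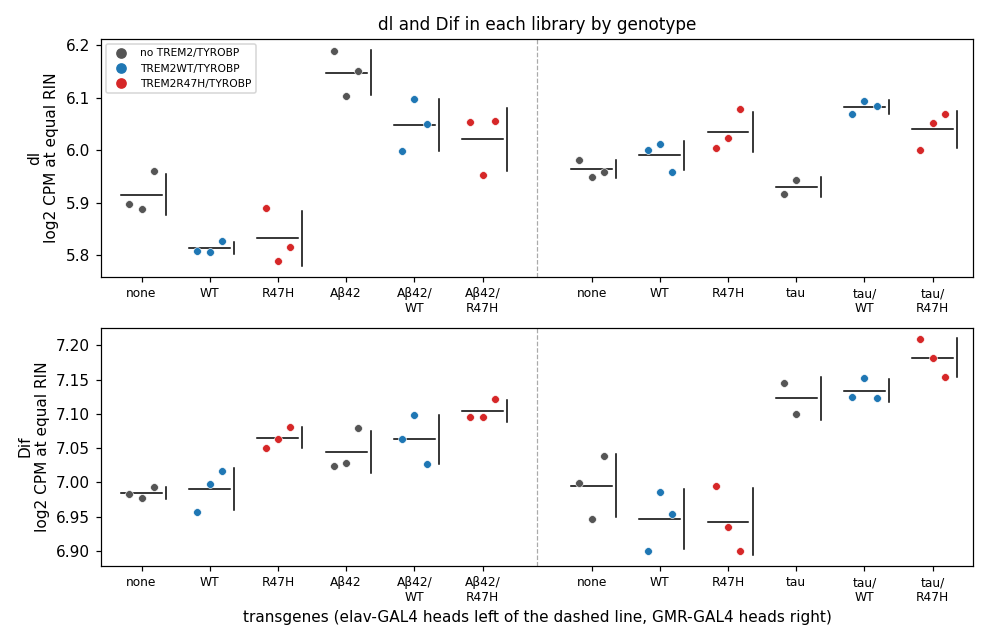
dl and Dif (y axes, log2 CPM at equal RIN, each with its own range) in each library of the 12 genotypes (x axis), with horizontal lines for the mean and vertical lines for ± 1 SD. In the elav heads each Aβ42 genotype lies above its counterpart without Aβ42 for dl, and in the GMR heads each tau genotype lies above its counterpart without tau for Dif.

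Cell type markers moved with these comparisons. With tau, 3 of 7 photoreceptor markers and 3 of 5 muscle markers were called lower. Of 8 haemocyte markers NimC1 rose (1.66, adjusted p 7.41e-15) and lz fell (-0.29, adjusted p 8.31e-08). The summed photoreceptor level lay between 15.13 and 15.37 log2 CPM in the tau libraries and between 15.55 and 15.64 in the GMR libraries without tau, and that of muscle between 10.90 and 11.16 with tau and 11.19 and 11.53 without. With Aβ42, 2 of 8 haemocyte, 1 of 6 fat body, 1 of 7 photoreceptor and 1 of 5 muscle markers were called lower, and the summed haemocyte level lay between 9.80 and 9.96 with Aβ42 and 9.94 and 10.07 without. Outside the fat body list, the lowest of these markers was He of the haemocytes, with a lowest value of -0.86 log2 CPM. In whole heads, fewer cells of a type and less RNA per cell cannot be told apart, and the part of these markers in the values of Dif, dl and Toll-4 was not tested. For R47H against WT, of 8 haemocyte, 7 glial, 6 neuronal and 6 fat body markers 1 was called, the fat body storage protein gene Lsp2 (-0.99, SE 0.09, adjusted p 5.30e-08). The summed fat body level, nearly all of it Rfabg (mean 14.70 log2 CPM, the next gene being Lsd-1 at 8.44), overlapped between WT and R47H in all 4 settings. It lay between 14.23 and 14.29 with WT and 14.26 and 14.51 with R47H in elav heads, and between 14.31 and 14.38 and between 14.22 and 14.36 with Aβ42. In GMR heads it lay between 14.96 and 15.30 with WT and 15.11 and 15.28 with R47H, and between 15.07 and 15.15 and between 15.12 and 15.25 with tau. Against no TREM2/TYROBP the marker shifts were larger. The fat body gene to fell with WT (-2.15, adjusted p 3.12e-14) and with R47H (-1.89, adjusted p 2.74e-13), and Lsp2 rose with WT (1.09, adjusted p 8.34e-09). Of the haemocyte markers NimC1 fell with WT (-1.04, adjusted p 2.42e-12) and R47H (-0.97, adjusted p 5.86e-12), He rose with WT (0.36, adjusted p 0.0202) and R47H (0.47, adjusted p 0.00129), and srp fell with R47H (-0.30, adjusted p 4.00e-07). The larval markers Fbp1 and Fbp2 of the fat body list were near 0 CPM (means of -2.40 and -3.23 on the log2 scale). The part of fat body and haemocytes in the values of Toll-4, spz, Rel and the antimicrobial genes was not tested.

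**Figure D4:**
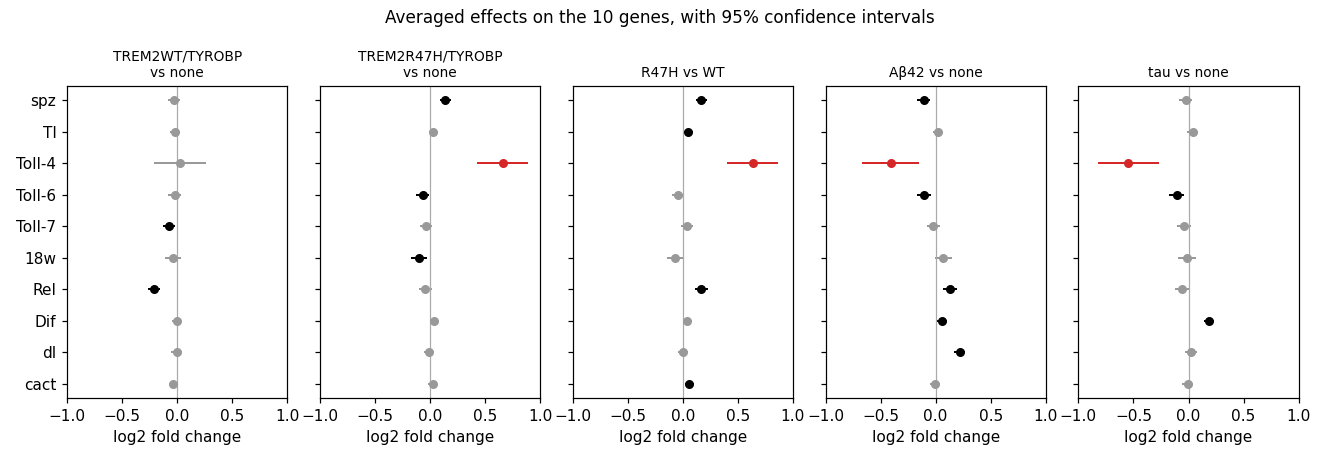
Averaged log2 fold changes (x axes) of the 10 genes (y axis) for TREM2WT/TYROBP and TREM2R47H/TYROBP against none and R47H against WT over 4 settings, and for Aβ42 and tau against none over 3, with 95% confidence intervals from the fit. Red marks the 4 called values, all Toll-4, black an adjusted p under 0.05 with a fold under 1.2, and grey the rest, and only Toll-4 lies farther than 0.22 from 0.

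Averaged over the settings of each driver, the TREM2/TYROBP effect on dl had opposite signs in the 2 drivers. In the elav settings it was -0.10 for TREM2WT/TYROBP (SE 0.03, adjusted p 0.0101) and -0.11 for TREM2R47H/TYROBP (SE 0.02, adjusted p 0.00409). In the GMR settings it was 0.09 for TREM2WT/TYROBP (SE 0.03, adjusted p 0.0277) and 0.09 for TREM2R47H/TYROBP (SE 0.03, adjusted p 0.0206). The GMR effect less the elav effect, tested after these values were seen, was 0.19 for WT (SE 0.04, adjusted p 0.00490) and 0.20 for R47H (SE 0.04, adjusted p 0.00580). dl was the only member that passed in either test, where 2.60% and 1.25% of all genes did. Without Aβ42 or tau the difference between drivers was not called for dl. It was 0.13 for WT (SE 0.05, adjusted p 0.238) and 0.16 for R47H (SE 0.06, adjusted p 0.409). In GMR heads TREM2WT/TYROBP gave dl 0.03 against the control and, with tau, 0.15 against tau alone. For TREM2R47H/TYROBP these were 0.07 and 0.11. The group with tau alone had 2 libraries. TREM2WT/TYROBP and TREM2R47H/TYROBP did not differ detectably for dl (R47H against WT -0.00178, 95% interval -0.04 to 0.03).

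None of the 4 interactions of TREM2/TYROBP with Aβ42 or tau was called for any of the 10 genes by limma (0 of 40, against 0.361% of the pairs of all genes), and 5 of 40 had an unadjusted p under 0.05, against 10.6% of the pairs of all genes. Between the control heads, the GMR driver stood above elav for Toll-4 (1.12, SE 0.22, adjusted p 0.000204) and Rel (0.28, SE 0.05, adjusted p 3.96e-05), 2 of the 10 genes against 24.7% of all genes. By adjusted p alone 7 of the 10 differed, against 38.6% of all genes, with Tl, cact and spz higher and Toll-6 and Toll-7 lower in GMR heads. The call for Rel was lost without GMR control replicate 3 and when each library was centred on its median.

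The rest of the pathway was read through 6 lists. The antimicrobial peptide genes, listed for the Toll and Imd pathways together, had the largest share of genes called in any of the 5 averaged effects. The share was 15 of 24, against 19.2% of all genes. Which pathway acts on each of these genes was not tested. Of the 24 in the table, 7 were called between R47H and WT, against 3.48% of all genes, and all 7 were higher with R47H. Among these were Drsl4, a drosomycin-like peptide gene (1.24, SE 0.06, adjusted p 1.25e-12), and Mtk, which encodes metchnikowin (0.68, SE 0.20, adjusted p 0.0222). IM14, a gene of the immune-induced peptides, was also higher (0.30, SE 0.08, adjusted p 0.0105). The median over the 24 was 0.32, against -0.000342 over all genes.

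With TREM2WT/TYROBP against none 7 of the 24 fell and 1 rose, IM14 (0.36, adjusted p 0.00249), where 5.07% of all genes were called. With TREM2R47H/TYROBP 2 fell and 5 rose, where 7.59% of all genes were called. Drsl4 fell with WT (-0.30, adjusted p 0.00192) and rose with R47H (0.93, adjusted p 1.03e-10), while Mtk fell with WT (-0.77, adjusted p 0.0103) and was at -0.09 with R47H (adjusted p 0.779). With Aβ42 6 fell and 3 rose, where 8.13% of all genes were called, and with tau 2 fell, where 6.42% were. Drsl4 fell by 1.29 with Aβ42 (-1.29, adjusted p 1.72e-12).

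Upstream of the receptor, 2 of 12 recognition and protease genes were called in any of the 5 averaged effects, as were 19.2% of all genes. PGRP-SD, a secreted recognition protein, fell with TREM2R47H/TYROBP (-0.53, SE 0.05, adjusted p 1.09e-08), was lower with R47H than with WT (-0.29, adjusted p 0.000170) and rose with Aβ42 (0.31, adjusted p 0.000112). GNBP1, which acts with PGRP-SA in the recognition of bacteria, fell with TREM2WT/TYROBP (-0.28, SE 0.02, adjusted p 6.43e-09). Of the 8 other Toll receptors and Spätzle ligands 3 were called. spz6 fell with R47H (-0.72, adjusted p 5.57e-05), and spz4 rose with both variants (WT 0.39, adjusted p 0.00621, and R47H 0.33, adjusted p 0.0102) and fell with Aβ42 (-0.44, adjusted p 0.00243). Both genes were low, with mean levels of -0.85 (spz6) and 0.38 (spz4) log2 CPM. The receptor gene Tehao fell with tau (-0.31, adjusted p 0.00322).

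Between receptor and factor, 1 of 14 intracellular Toll genes was called, cactin, the gene of a protein that binds Cactus, which rose with Aβ42 (0.35, SE 0.04, adjusted p 1.67e-06). Among 13 intracellular Imd genes POSH, a ubiquitin ligase, rose with Aβ42 (0.40, adjusted p 2.43e-08) and Tab2, a partner of the kinase Tak1, rose with tau (0.37, adjusted p 9.99e-10). Of 11 Imd receptors and inhibitors, the inhibitors pirk (0.61, adjusted p 4.56e-08) and PGRP-LB (0.38, adjusted p 4.63e-05) rose with Aβ42, and PGRP-SC2 fell with TREM2WT/TYROBP (-0.59, adjusted p 0.0336).

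The genes whose values were most like each member were sought among 10139 genes, over the 35 libraries after centring within driver, and the coefficients are a description of libraries that share genotypes and scaling. spz was most like Drsl4 (r = 0.88), then CG10562 (0.86) and Drsl5 (0.85), both Drsl genes being antimicrobial peptides. Rel was most like PGRP-SB1 (0.85), a peptidoglycan recognition protein, then tok and cal1. Toll-4 was most like CG34437 (0.86), Obp57a (0.83) and mth (0.81). Among the 10 genes themselves the largest coefficients were 0.72 for Toll-4 with spz, 0.64 for Tl with cact and -0.60 for Toll-4 with 18w. Every other member had its closest gene outside the list, 18w with alpha-Spec (0.91), Dif with CG33116 (0.88), dl with CG5687 (0.88), Toll-6 with CG42346 (0.87), Toll-7 with trn (0.75), cact with hay (0.70) and Tl with CG2469 (0.68).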

How the data were processed

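RNA of fly heads was sequenced by the authors after ribosomal depletion (TruSeq RNA v2). Per the submitters' notes reads were aligned to BDGP6 with STAR 2.5.0b and counted with featureCounts. The authors dropped genes that never reached 5 reads in a library, normalized by TMM and deposited log2 CPM values adjusted for RIN. The deposited log2 table holds 14279 genes, and all 10 genes described passed the filter. Depth per library is unknown, and precision comes from the spread between libraries.

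The deposited values had no slope on RIN over all 35 libraries, but inside genotypes a median absolute slope of 0.103 per unit. The model therefore held 12 genotypes and RIN, fitted in limma 3.58.1 (R 4.3.3) with 22 residual degrees of freedom. "Values at equal RIN" were moved along each gene's within-genotype slope to the mean RIN of 6.71. Adjusted p-values are Benjamini-Hochberg over all genes. Calls needed an adjusted p under 0.05 and a fold above 1.2, and interactions, driver differences and the contrast of Aβ42 with tau the adjusted p alone. From each pathway list up to 3 genes called in the most averaged effects were named, and for each gene the 3 most alike, of which 1 to 3 are given. The code was tested on simulated data. Positions and overlaps came from the table and the BDGP6 annotation. Alternatives were the RIN term, scaling, filter, 1 added, variance model, fold, libraries fitted, replicate block and leaving out each library. Plots used matplotlib 3.10.9. The genes and lists were chosen with earlier results of these data known. The counts of genes without overlap between groups were not planned and took only the directions described, so they are a description and not a test.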

Additional observations from a re-analysis of the deposited data

Results flagged for a closer look

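The effect of TREM2WT/TYROBP on Rel without Aβ42 or tau was tested for a difference between drivers and passed, with GMR less elav at -0.27 on the log2 scale (SE 0.07, adjusted p 0.0284). Over 42 alternatives its adjusted p ranged from 0.00755 to 0.0907 and 7 lost the call, 6 of them by leaving out 1 library: GMR control replicate 3, GMR TREM2WT/TYROBP replicate 3, elav control replicate 1 or 3, or elav TREM2WT/TYROBP replicate 1 or 3.

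The effect of TREM2/TYROBP on dl differed between drivers over both settings of each, by 0.19 for TREM2WT/TYROBP (adjusted p 0.00490) and by 0.20 for TREM2R47H/TYROBP (adjusted p 0.00580). Both kept their call in all 44 alternatives, with adjusted p from 0.00314 to 0.0238 and from 0.00276 to 0.0393. Driver and sex markers cannot be told apart in these 3 differences, nor, in both differences for dl, can the disease protein. Without Aβ42 or tau the driver difference for dl was not called (WT 0.13, adjusted p 0.238, and R47H 0.16, adjusted p 0.409).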

How the results depend on the processing

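Alternatives were computed for the 5 counts and for 36 gene-by-comparison values of the 10 genes, those called or past the adjusted p and 3 of Toll-4 beside them, and none of the 36 reversed. Values of other genes and the remaining values were not recomputed. With 1 added to the linear value the differences of Toll-4 shrank, from 0.66 to 0.32 for R47H against none, from 0.63 to 0.32 for R47H against WT, from -0.41 to -0.17 with Aβ42, from -0.55 to -0.31 with tau and from 1.12 to 0.58 between controls. Over the 18 comparisons, 5 calls became 9 with 1 added to the linear value, 0 with a log2 fold change above 1 and 29 with the adjusted p alone, and 4 to 8 when each library was left out, 8 without elav Aβ42 replicate 2. The 4 calls in averaged effects became 0 with a log2 fold change above 1 and 20 with the adjusted p alone, and stayed at 4 without each library. The interactions had 0 calls throughout (0 to 0 without each library). The call among driver differences became 0 to 1 without each library. The 2 calls between controls became 1 with a log2 fold change above 1, 7 with the adjusted p alone and 1 to 3 without each library, 1 without GMR control replicate 3.

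Replicate numbers did not pair the libraries (mean correlation of same-numbered deviations 0.00112 in elav and -0.0207 in GMR heads). With the replicate block, 4 calls stood in the 18 comparisons, Toll-4 in tau/TREM2R47H/TYROBP against tau/TREM2WT/TYROBP losing its own (adjusted p 0.0679), and 0 among driver differences. Other scalings moved the median of all genes by at most 0.06. TREM2/TYROBP averages of the elav or GMR settings alone were added after the data were seen. They kept the sign of the average over all 4 settings wherever that average passed the adjusted p. For dl against none, where it did not pass, the elav and GMR settings had opposite signs. The low level of Toll-4 limits single comparisons.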
